A study of Mus musculus with 21 samples.

Results

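The proteasome is a large barrel-shaped protease, and its subunits are encoded by genes whose mouse symbols begin with Psm. The 46 genes described here are those of the 45706 in the deposited table whose symbol is Psma, Psmb, Psmc, Psmd, Psme, Psmf or Psmg followed by a number and at most 1 letter, without the 3 immunoproteasome genes Psmb8, Psmb9 and Psmb10. RNA was measured in 21 libraries from 2 mouse mammary fibroblast lines, in 7 groups of 3. The CAF groups were the line CAF1, fibroblasts from a mammary carcinoma of the MMTV-PyMT mouse, in which a mammary tumour virus promoter drives the polyoma middle T oncogene. CAF cells received siRNA to Hsp90aa1, siRNA to Hsp90ab1 or control siRNA, all without TGFβ1 (vehicle). The NF groups were the line NF1, fibroblasts from normal mammary glands of FVB/n mice. NF cells received siRNA to Hsp90aa1, siRNA to Hsp90ab1 or control siRNA, each with TGFβ1 at 5 ng/mL, and a further NF group received control siRNA with vehicle. All cells were transfected at 60% confluence with 100 nM siRNA in medium with 10% serum, TGFβ1 was given 5 h later for 43 h, and RNA was taken 48 h after transfection. Each kind of fibroblast is 1 line, so tumour origin and line cannot be told apart. Each knockdown used 1 pool of siRNAs, so loss of the target and effects of the pool on other transcripts cannot be told apart. The sources used here do not give the age of the animals.

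As background, the 20S core of the proteasome is a stack of rings in which the Psma genes encode the outer, gate-forming alpha subunits and the Psmb genes the inner beta subunits, among them the proteolytic Psmb5 (chymotrypsin-like), Psmb6 (caspase-like) and Psmb7 (trypsin-like). The 19S cap has a base, made of the Psmc ATPases that unfold substrates and of the scaffold and ubiquitin-binding subunits Psmd1, Psmd2 and Psmd4, and a lid, in which Psmd14 removes ubiquitin chains from the substrate. Psme1 and Psme2 form the 11S activator PA28, which opens the core without ubiquitin and is induced by interferon gamma, while Psme3 and Psme4 encode the nuclear activators PA28 gamma and PA200, and Psmf1 an inhibitor. Psmg1 to Psmg4 are chaperones of core assembly, and Psmd5, Psmd9 and Psmd10 are chaperones of base assembly. HSP90, encoded by the stress-inducible Hsp90aa1 and the constitutive Hsp90ab1, is a chaperone of many client proteins, and in budding yeast it takes part in assembly of the 26S particle. In mammalian cells the transcription factor NRF1 (gene Nfe2l1) raises proteasome genes together when proteasome activity falls.

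The libraries held about 35087200 to 70421600 estimated counts each, and the 46 genes together took 0.355% to 0.618% of them. Of the 46 genes, 44 passed the filter on low counts among 15230 genes tested. The others were Psma8, a testis alpha subunit with 0 counts, and Psmb11, a thymus beta subunit with at most 5 counts in a library. Of the 7 fibroblast markers, all but Lum were above 17 TPM in every group mean, while summed epithelial markers reached at most 34.7 TPM, nearly all of it Krt19 in CAF, and Cd3e was at 0 in every library. Summed endothelial markers reached at most 4.72 TPM and summed immune markers at most 6.35 TPM. The siRNA to Hsp90aa1 left 122, 85.9 and 58.1 CPM of Hsp90aa1 in CAF, against 995, 926 and 726 with control siRNA, and 40.2, 65.5 and 120 in NF with TGFβ1, against 671, 606 and 543 with control siRNA. CPM are counts scaled to the library total after TMM normalisation. Hsp90ab1 fell by 3.33 ± 0.22 on the log2 scale with its own siRNA in CAF and by 2.91 ± 0.21 in NF (SE, edgeR). Log2 fold changes are given with their standard error, and a gene passed where edgeR's quasi-likelihood test gave an adjusted p under 0.05 over all genes tested. The labels do not say that replicates came from separate cultures, so the p-values speak to the variation among the libraries at hand, which may be technical.

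Per length, the core was the most abundant part. Over the 21 libraries, mean TPM (abundance scaled by transcript length and library total) ran in the alpha ring from 150 for Psma1 to 494 for Psma7, and in the beta ring from 220 for Psmb2 to 351 for Psmb6. In the 19S base the ATPases ran from 141 for Psmc4 to 229 for Psmc3, and the other subunits from 137 for Psmd1 to 204 for Psmd2. The lid ran from 108 for Psmd6 to 238 for Psmd7. Activators were more uneven, with Psme2 at 282 TPM, Psme4 at 57.4 and Psme2b, a copy of Psme2 that may share its reads, at 13.5. The assembly chaperones were lowest as a class, from 31.3 TPM for Psmd10 to 76.9 for Psmd5. Within a gene, the ratio of the highest to the lowest group mean in CPM had a median of 1.57 and ran from 1.17 (Psmd9) to 4.98 (Psme1), and it was over 2 for 7 of the 44 genes. CAF with siHsp90aa1 was the lowest group for 26 of the 44. NF with vehicle was the highest for 15 and NF with siHsp90ab1 for 13. These counts were not taken over all genes, so they do not set the proteasome genes apart from others.

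**Figure D1:**
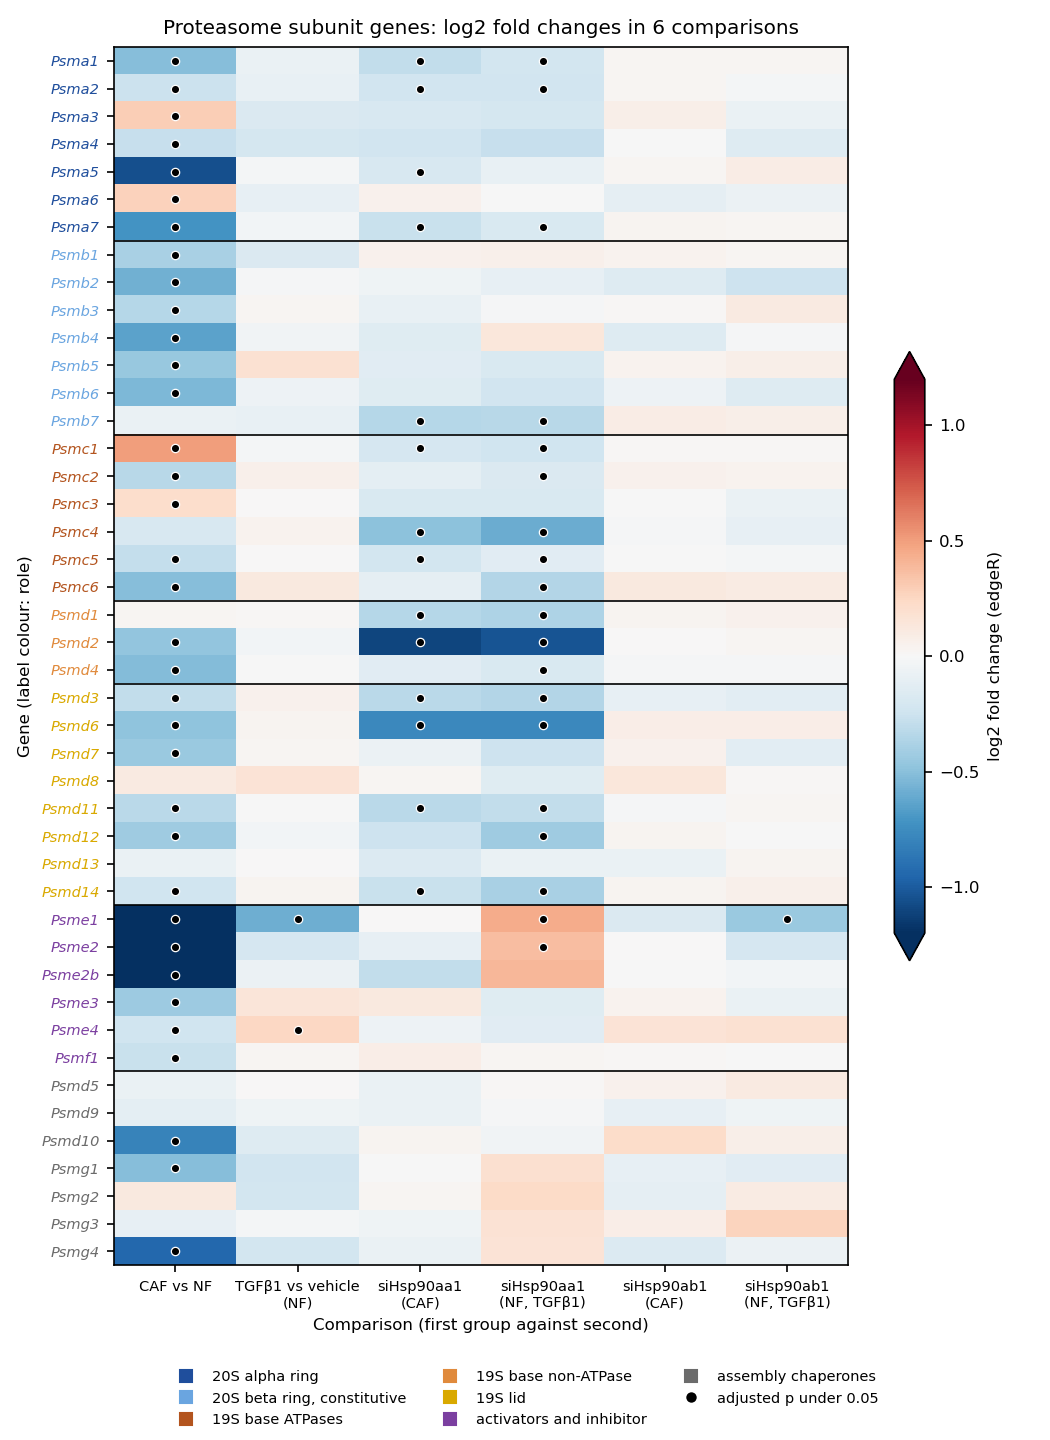
Heat map of the log2 fold change of 44 proteasome genes (rows, grouped by role) in 6 comparisons (columns), with the colour scale ending at 1.2 either way and dots where edgeR's adjusted p was under 0.05. CAF against NF has 35 dots, siHsp90aa1 has 14 in CAF and 19 in NF, and siHsp90ab1 has 0 in CAF and 1 in NF.

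With siHsp90aa1, 9 of 17 genes of the 19S cap fell in CAF and 13 of 17 in NF. In CAF, siHsp90aa1 against control siRNA changed 14 of 44 proteasome genes (31.8%), 0 higher and 14 lower, against a background of 25.4% of all genes tested, 12.5% higher and 12.9% lower. In NF with TGFβ1 it changed 19 of 44 (43.2%), 2 higher and 17 lower, against 28.3% of all genes, 14.8% higher and 13.5% lower. The median log2 change of the 44 genes was -0.14 in CAF, against 0.030 over all genes, and -0.16 in NF, against 0.0055 over all genes. The median of the 17 cap genes was -0.22 in CAF and -0.30 in NF, and the value was negative for 16 in CAF and for all 17 in NF. Bulk libraries cannot tell a lower amount of RNA per cell from fewer cells that hold it.

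Psmd2, the largest cap subunit beside Psmd1 and a docking site for ubiquitin-like domains, was the most lowered member. Psmd2 lies at chr16:20651652-20663414 on the plus strand (GRCm38). It had 152, 144 and 121 CPM in CAF with siHsp90aa1, against 302, 299 and 293 with control siRNA. In NF it had 171, 195 and 225 CPM with siHsp90aa1, against 396, 416 and 401 with control siRNA. The groups did not overlap in either line, and the knockdown libraries lay at about the same fraction of their controls in both. Psmd2 changed by -1.10 ± 0.09 in CAF (46.6% of control, edgeR adjusted p = 9.11e-07) and by -1.04 ± 0.09 in NF (48.7% of control, edgeR adjusted p = 6.19e-07). In both lines the library with the most remaining Hsp90aa1 was also the one with the most Psmd2, among 3 libraries each. The CAF control siRNA libraries, without knockdown, stood in the same order for both genes, and the NF control libraries did not. Whether the level of Psmd2 follows that of Hsp90aa1 was not tested.

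Psmd6, a lid subunit at chr14:14112174-14120984 on the minus strand, followed. It had 39.6, 39.4 and 31.7 CPM in CAF with siHsp90aa1, against 65.6, 67.3 and 56.8 with control siRNA, and 43.9, 51.6 and 63.2 CPM in NF with siHsp90aa1, against 88.2, 87.1 and 95.2 with control siRNA. Again no knockdown library reached a control library of the same line. The change was -0.78 ± 0.11 in CAF (edgeR adjusted p = 9.23e-05) and -0.77 ± 0.11 in NF (edgeR adjusted p = 8.09e-05). Psmc4, a base ATPase, averaged 69.9 CPM in CAF with siHsp90aa1 and 98.6 CPM with control siRNA, a change of -0.50 ± 0.09 (edgeR adjusted p = 0.000555). In NF Psmc4 averaged 76.4 CPM with siHsp90aa1 and 116 CPM with control siRNA, a change of -0.60 ± 0.09 (edgeR adjusted p = 0.000104). Among the others, the lid scaffold Psmd11 changed by -0.32 ± 0.05 in CAF and -0.30 ± 0.05 in NF, the base scaffold Psmd1 by -0.34 ± 0.07 and -0.37 ± 0.07, and the deubiquitinase Psmd14 by -0.26 ± 0.09 and -0.39 ± 0.09. Exons of Psmd1 overlap those of 1 other gene on its strand and 1 on the opposite strand, and the sources used here do not say whether counting used strand. Psmd4, the ubiquitin receptor of the base, fell by 0.18 ± 0.06 in NF (edgeR adjusted p = 0.0223). That call was lost with upper quartile normalization, with no filter, with the compared groups alone, and without control replicate 1 or siHsp90aa1 replicate 1 or 2 (adjusted p up to 0.109). The call of Psmd14 in CAF was lost with the compared groups alone and without siHsp90aa1 replicate 1 or 3 or control replicate 1 or 2 (adjusted p up to 0.14).

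**Figure D2:**
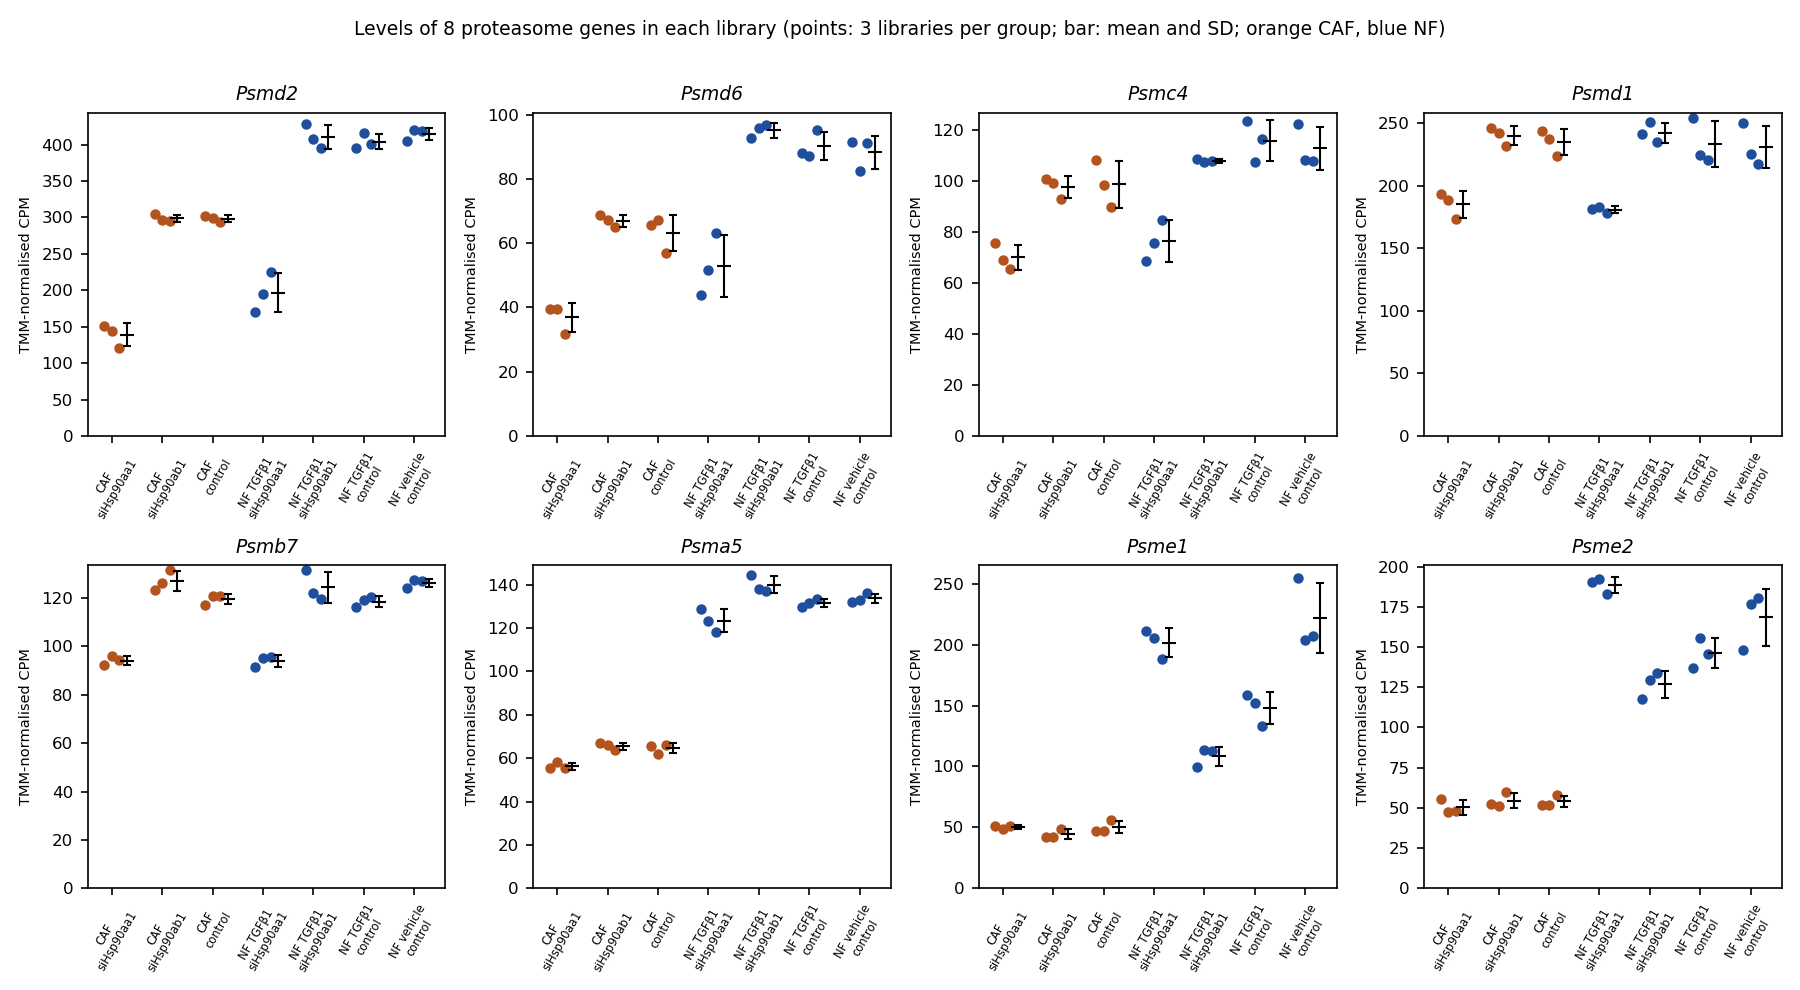
Levels of 8 proteasome genes in TMM-normalised CPM (vertical axes) in the 7 groups, with a point per library and bars for the mean and SD of 3 libraries, CAF in orange and NF in blue. Psmd2 lies between 121 and 225 CPM in the 6 siHsp90aa1 libraries and between 293 and 429 CPM in the other 15.

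The promoters of Psmd2 and Psmd6 are shown because these were the members most lowered by siHsp90aa1 in both lines. They are RefSeq sequences (GRCm38.p6) from 250 bases before to 25 bases after the RefSeq start, written 5′ to 3′ on the gene's strand. The first window is chr16:20651402-20651676 (plus strand) and the second chr14:14120921-14121195 (minus strand). Capitals mark a match to the motif GAS, the interferon gamma-activated site.
Psmd2 promoter: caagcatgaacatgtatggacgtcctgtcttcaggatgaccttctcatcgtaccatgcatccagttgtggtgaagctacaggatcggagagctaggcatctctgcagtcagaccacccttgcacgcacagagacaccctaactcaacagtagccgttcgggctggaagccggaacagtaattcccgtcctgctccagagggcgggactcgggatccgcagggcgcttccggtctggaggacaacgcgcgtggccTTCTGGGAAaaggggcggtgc
Psmd6 promoter: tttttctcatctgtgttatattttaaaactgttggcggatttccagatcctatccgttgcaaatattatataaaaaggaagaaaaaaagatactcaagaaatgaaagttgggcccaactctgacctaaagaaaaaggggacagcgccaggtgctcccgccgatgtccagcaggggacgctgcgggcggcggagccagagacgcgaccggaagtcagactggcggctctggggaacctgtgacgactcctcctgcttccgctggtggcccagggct
Promoter windows of 300 bases (250 before and 50 after the start) were found for 38 of the 46 genes and for 27018 genes in all, and each motif was searched on both strands. The heat shock element, searched as GAA, TTC and GAA with 2 bases between neighbours, was in 0 of the 38 and in 0.663% of all genes. The antioxidant response core TGACNNNGC, which resembles sites bound by NRF1, was in 6 of the 38 (15.8%) and in 14.0% of all genes, and in neither promoter printed here. CCAAT was in 13 (34.2%) and in 41.1% of all genes. GAS, searched as TTCNNNGAA, was in 2 (5.26%) and in 9.55% of all genes. A match is a run of letters and no evidence of a bound site.

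The 20S core moved by smaller amounts with siHsp90aa1. Of the 14 core genes tested, 5 fell in CAF, where 12.9% of all genes fell, and 4 in NF, where 13.5% of all genes fell, with medians of -0.17 in CAF and -0.19 in NF. Psmb7, the trypsin-like subunit, had 92.2, 96 and 94.2 CPM in CAF with siHsp90aa1, against 117, 121 and 121 with control siRNA. In NF it had 91.3, 95.1 and 95.6 CPM with siHsp90aa1, against 116, 119 and 120 with control siRNA. The groups were apart by far more than the spread within them, with changes of -0.35 ± 0.05 in CAF (edgeR adjusted p = 0.00014) and -0.33 ± 0.05 in NF (edgeR adjusted p = 0.00016). Exons of Psmb7 overlap those of Nek6 on the opposite strand. The other catalytic subunits did not pass, with Psmb5 at -0.18 in NF (edgeR adjusted p = 0.142) and Psmb6 at -0.23 in NF (edgeR adjusted p = 0.0765). With the replicate number as a block Psmb6 passed in NF (edgeR adjusted p = 0.0475), as it did with limma on log2(TPM + 1) in both lines. In the alpha ring, Psma1 changed by -0.29 ± 0.05 in CAF and -0.22 ± 0.05 in NF, and the abundant Psma7 by -0.27 ± 0.05 and -0.19 ± 0.05. The NF call of Psma7 was lost with upper quartile normalization, with no filter, with the compared groups alone and without control replicate 1 (adjusted p up to 0.0878). Summed over genes, cap TPM was 2188 ± 91.6 in CAF with siHsp90aa1 and 2763 ± 121 with control siRNA, and 2487 ± 68.9 in NF with siHsp90aa1 and 3213 ± 116 with control siRNA (SD, n = 3 each). The ratio of summed cap to summed core TPM was 0.752 to 0.796 in CAF with siHsp90aa1, against 0.804 to 0.862 with control siRNA. In NF it was 0.657 to 0.693 with siHsp90aa1, against 0.762 to 0.824 with control siRNA. The ranges did not overlap in either line, and the difference between cap and core was given no test. In CAF the gap rests on Psmd2, which averaged 89.5 TPM with siHsp90aa1 and 199 with control siRNA. With Psmd2 left out of the cap sum, the CAF ranges overlap, while the NF ranges stay apart.

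Both knockdowns of Hsp90aa1 can be set side by side, since the lines share no library. The lowered members were 14 in CAF and 17 in NF, and 13 were in both lists (92.9% of the CAF list and 76.5% of the NF list), 9 of them cap genes. Only Psma5 passed in CAF and not in NF, and Psmc2, Psmc6, Psmd12 and Psmd4 passed in NF and not in CAF. Psmd4 and Psmd12 passed in CAF too with the replicate block (edgeR adjusted p = 0.0391 and 0.0397), and Psmc2 passed in NF in only 5 of 13 alternatives. Whether these genes differed between the lines was tested directly. In the test of the effect in CAF minus the effect in NF, 1 of 44 members passed, lower, against 5.46% of all genes, 2.44% higher and 3.02% lower. No cap or core gene was that member, and for Psmd2 the difference was -0.06 ± 0.12 (95% interval -0.32 to 0.19) and for Psmd6 0.00 ± 0.15 (95% interval -0.33 to 0.32). For 40 of the 44 the 95% interval of the difference lay within 1.5-fold either way. The NF cells had TGFβ1 and the CAF cells did not, so line and TGFβ1 cannot be told apart in that difference. Across the 44 genes the changes in the 2 lines had a Pearson r of 0.755 and a Spearman rho of 0.690, as a description over genes that share their libraries, and r was 0.659 without Psmd2. The shared list, the intervals and the correlations were not taken over all genes. They therefore do not set the proteasome genes apart from others.

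**Figure D3:**
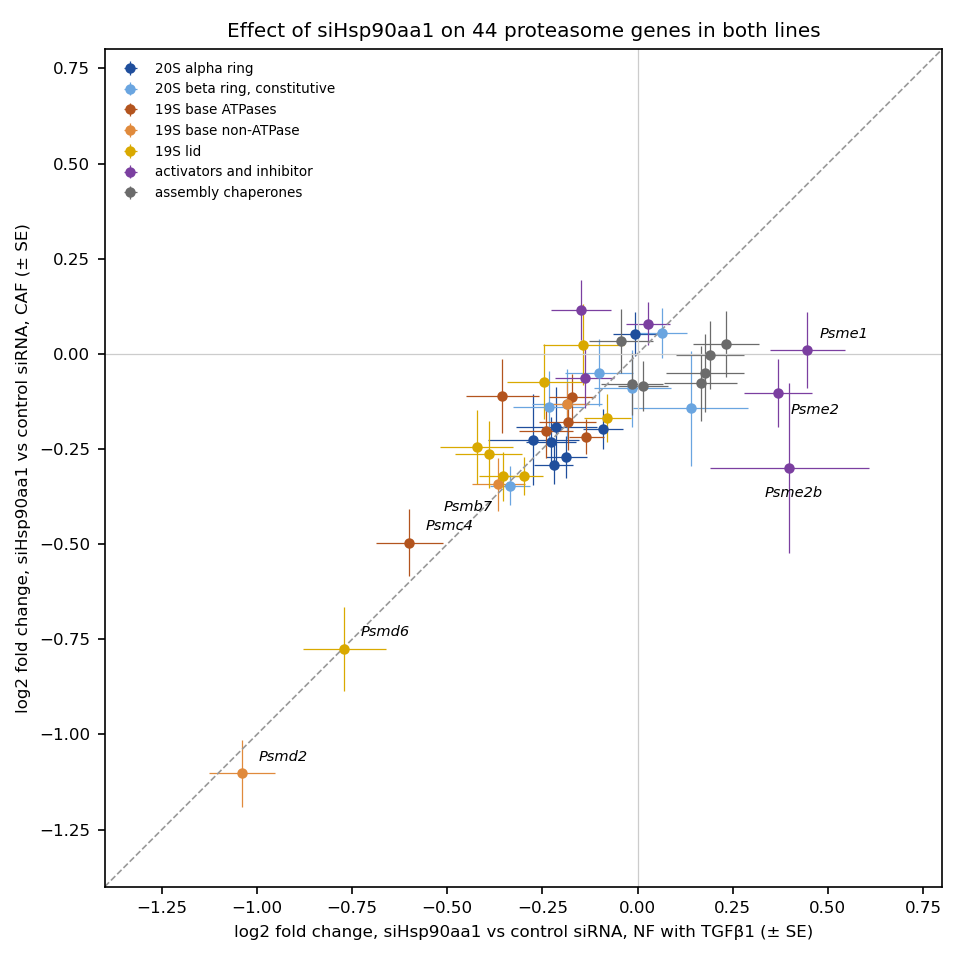
Log2 fold change of 44 proteasome genes with siHsp90aa1 in NF with TGFβ1 (horizontal axis) and in CAF (vertical axis), with SE bars, colours for roles and a dashed line of equality. Psmd2 and Psmd6 lie farthest down and left near the line, and Psme1, Psme2 and Psme2b lie to the right of it.

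The 11S activator genes rose with siHsp90aa1 in NF and did not pass in CAF. In CAF, Psme1 had 51.4, 48.5 and 51.4 CPM with siHsp90aa1, against 47.3, 47.2 and 55.7 with control siRNA, and Psme2 had 55.6, 47.6 and 47.8 with siHsp90aa1, against 51.9, 52.1 and 58.2 with control siRNA. These groups overlapped, with changes of 0.01 for Psme1 (edgeR adjusted p = 0.962) and -0.10 for Psme2 (edgeR adjusted p = 0.446). In NF with TGFβ1, Psme1 had 211, 205 and 188 CPM with siHsp90aa1, against 159, 152 and 133 with control siRNA, and no libraries overlapped. It rose by 0.45 ± 0.10 (edgeR adjusted p = 0.00274). Psme2 had 191, 192 and 183 CPM in NF with siHsp90aa1, against 137, 155 and 146 with control siRNA, again apart, and it rose by 0.37 ± 0.09 (edgeR adjusted p = 0.00516). The effect in CAF minus that in NF was -0.47 ± 0.13 for Psme2 (edgeR adjusted p = 0.0368), the single member that passed, and -0.44 ± 0.14 for Psme1 (edgeR adjusted p = 0.0791), which passed with DESeq2, with limma and with the compared groups alone. In 8 of the 12 fits that left out 1 library, no member passed this test of the difference. Psme3, Psme4 and Psmf1 did not pass in either line.

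The inducible catalytic subunits, which replace the constitutive ones in the immunoproteasome, moved beside Psme1 and Psme2. With siHsp90aa1 0 of 3 passed in CAF, and all 3 rose in NF, Psmb8 by 0.70, Psmb10 by 0.86 and Psmb9 by 1.51. Their summed TPM was 547 ± 52.7 in NF with siHsp90aa1 and 318 ± 17.8 with control siRNA (SD, n = 3 each). Among all genes tested, 12.5% rose and 12.9% fell in CAF with siHsp90aa1, and 14.8% rose and 13.5% fell in NF. Of 10 interferon-stimulated genes, 1 rose and 1 fell in CAF with siHsp90aa1, and 8 rose and 0 fell in NF, with a median of 0.76 in NF. Their part in the change of Psme1 and Psme2 was not tested.

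With siHsp90aa1, several genes of proteins bound to the cap fell. In the fit without a block, 0 of the 7 assembly chaperones passed edgeR's test in either line (0 in CAF and 2 in NF at an unadjusted p under 0.05), with medians of -0.05 in CAF and 0.17 in NF, and in NF the core chaperones Psmg1 to Psmg4 stood at 0.19, 0.23, 0.18 and 0.17 (edgeR adjusted p = 0.122, 0.0531, 0.211 and 0.21). Psmg2 passed in NF with the replicate block (edgeR adjusted p = 0.0161), with upper quartile normalization and with DESeq2 (adjusted p = 0.0376). The background for the lists that follow was 25.4% of all genes tested in CAF, 12.5% higher and 12.9% lower. In NF it was 28.3%, 14.8% higher and 13.5% lower. Of 16 further subunits and associated proteins tested, 0 rose and 8 fell in CAF and 2 rose and 5 fell in NF. Txnl1, a thioredoxin-like protein bound to the cap, had 53.6, 52.1 and 39.3 CPM in CAF with siHsp90aa1, against 106, 105 and 93.6 with control siRNA. In NF it had 39.1, 47.3 and 55.5 CPM with siHsp90aa1, against 113, 103 and 103 with control siRNA. The libraries did not overlap, and Txnl1 changed by -1.07 in CAF (edgeR adjusted p = 9.1e-06) and -1.17 in NF (edgeR adjusted p = 3.1e-06). Rad23b, which carries ubiquitinated proteins to the cap, changed by -0.71 in CAF and -0.95 in NF. Pomp, the chaperone of late core assembly, changed by -0.49 in CAF, and the shuttle gene Ubqln1 by -0.56 in NF. Of 11 genes of the NRF1 pathway, 2 rose and 1 fell in CAF and 3 rose and 2 fell in NF. The one that fell in CAF was Ddi2, the protease that cuts NRF1 into its active form, at -0.53 in CAF (edgeR adjusted p = 0.0003) and -0.74 in NF (edgeR adjusted p = 1.5e-05). The NRF1 gene Nfe2l1 rose by 0.31 in CAF, and the part of this pathway in the changes of the proteasome genes was not tested. Of 10 heat shock factor targets, 1 rose and 1 fell in CAF, and 2 rose in NF, Hspa1a by 0.77 and Hspa1b by 0.71. Of 6 ubiquitin and E1 genes, 0 rose and 1 fell in CAF and 1 rose and 1 fell in NF, and of 6 NRF2 targets, 0 changed in CAF and 1 rose in NF.

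With siHsp90ab1 the proteasome genes stayed close to their controls, and few genes of any kind passed. In CAF 0 of 44 passed in edgeR and in DESeq2, and 1 had an unadjusted p under 0.05, against 0.900% of all genes called, 0.466% higher and 0.433% lower. In NF with TGFβ1 1 passed, lower, against 2.69% of all genes, 1.06% higher and 1.62% lower. The medians were 0.012 in CAF, against -9.4e-04 over all genes, and 0.0046 in NF, against -0.0059 over all genes. For Psmd2 the 3 CAF libraries had 305, 297 and 295 CPM with siHsp90ab1, against 302, 299 and 293 with control siRNA, and the NF libraries had 429, 408 and 396 CPM, against 396, 416 and 401. The groups overlapped in both lines. The 95% interval lay within 1.5-fold of no change for all 44 genes in CAF and for 43 in NF, shares not taken over all genes. The exception was Psme1, with 99.4, 113 and 113 CPM in NF with siHsp90ab1, against 159, 152 and 133 with control siRNA. Psme1 fell by 0.45 ± 0.10 (edgeR adjusted p = 0.0179), a call that was lost without replicate 1 of siHsp90ab1 or replicate 1 or 2 of its control. Psmb8, Psmb9 and Psmb10 fell with it by 0.75, 1.27 and 0.64, and of the 10 interferon-stimulated genes 0 rose and 5 fell in NF, whose part was not tested. In CAF 0 of these genes passed in edgeR, with 2 at an unadjusted p under 0.05. In NF, Hspb1 was the single heat shock factor target that passed, at 0.69, and in edgeR 0 of the further subunits and associated proteins, NRF1 pathway genes, ubiquitin and E1 genes and NRF2 targets passed in either line, with 3 associated proteins in each line and 2 NRF1 pathway genes in CAF at an unadjusted p under 0.05. The siRNA to Hsp90ab1 also went with less Hsp90aa1, 479, 459 and 324 CPM in CAF and 253, 297 and 327 in NF, so these libraries are not at control levels of Hsp90aa1. The tests of the siHsp90ab1 effect in CAF minus that in NF called 0 of 44 members in edgeR and in DESeq2, with 0 at an unadjusted p under 0.05, against 0.00657% of all genes.

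Set directly against siHsp90ab1, siHsp90aa1 changed 18 of 44 members in CAF, 1 higher and 17 lower. The background in CAF was 26.3% of all genes, 13.1% higher and 13.3% lower. In NF siHsp90aa1 changed 22 members, 3 higher and 19 lower, against 34.1% of all genes, 17.7% higher and 16.4% lower. These contrasts share libraries with those above and are not independent of them. Among the 17 cap genes 11 were lower in CAF and 12 in NF, and among the 14 core genes 5 were lower and 1 higher in CAF and 6 lower in NF. Psmd2 stood at -1.11 ± 0.09 in CAF (edgeR adjusted p = 4.4e-07) and -1.06 ± 0.09 in NF (edgeR adjusted p = 1.63e-07), and Psmb7 at -0.43 ± 0.05 in CAF (edgeR adjusted p = 2.54e-05) and -0.40 ± 0.05 in NF (edgeR adjusted p = 1.4e-05). Psme1 was higher by 0.89 ± 0.10 in NF (edgeR adjusted p = 3.1e-06), Psme2 by 0.57 ± 0.09 and the core chaperone Psmg1 by 0.33 ± 0.09 (edgeR adjusted p = 0.00874). In CAF the alpha subunit Psma6 was the single higher member, by 0.16 ± 0.06 (edgeR adjusted p = 0.0465), and it passed in only 3 of 13 alternatives.

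Between the lines, most proteasome genes were lower in CAF. With control siRNA and vehicle, CAF against NF called 35 of 44 members (79.5%), 4 higher and 31 lower, against a background of 61.6% of all genes tested, 31.6% higher and 30.0% lower. The median was -0.34, against -0.0049 over all genes. The 44 tested and 2 untested genes summed to 6804 ± 138 TPM in CAF and 8648 ± 273 TPM in NF (SD, n = 3 each). Of the 17 cap genes 2 were higher and 11 lower, of the 14 core genes 2 were higher and 11 lower, and all 6 activators and inhibitors and 3 of 7 assembly chaperones were lower. Summed epithelial markers were 7.26 to 34.7 TPM in CAF, nearly all Krt19, against 0.538 to 0.585 TPM in NF, while Epcam stayed at or under 0.123 TPM, and their part in these differences was not tested.

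In the core, the alpha subunit Psma5 had 65.4, 61.8 and 66.1 CPM in CAF, against 132, 133 and 136 CPM in NF. The CAF libraries lay at 48.3% of the NF level, far outside the spread, with a change of -1.05 ± 0.05 (edgeR adjusted p = 1e-11). Exons of Psma5 overlap another gene on the opposite strand. Psma7 changed by -0.72 ± 0.05, Psma1 by -0.51 ± 0.05, and of the catalytic subunits Psmb5 by -0.46 and Psmb6 by -0.54, while Psmb7 at -0.08 did not pass (edgeR adjusted p = 0.211). NF vehicle replicate 1 stood apart from replicates 2 and 3, at 80.8 CPM against 115 and 106 for Psmb5. For Psmb6 it had 184 CPM against 139 and 133. Psmb5 and Psmb6 passed in every alternative. Psma6 went the other way, with 94.8, 98.7 and 105 CPM in CAF, against 79.6, 80.7 and 86.7 in NF. The groups did not overlap and the change was 0.28 ± 0.06 (edgeR adjusted p = 0.000464). In the cap, the base ATPase Psmc1 was also higher in CAF, with 151, 147 and 143 CPM, against 116, 97.9 and 97.3 in NF, a change of 0.50 ± 0.07 (edgeR adjusted p = 6.65e-06). Psma3 at 0.29 ± 0.11 and Psmc3 at 0.21 ± 0.07 were the other higher members, and both calls were lost with the compared groups alone and without NF replicate 2 or 3 or CAF replicate 1 or 2. The ubiquitin receptor Psmd4 changed by -0.52 ± 0.06, Psmd2 by -0.48 ± 0.09, Psmd6 by -0.48 ± 0.11 and Psmd14 by -0.24 ± 0.09. The Psmd14 call was lost with no filter, with limma, with the compared groups alone, and without NF replicate 1 or CAF replicate 3 (adjusted p up to 0.183). Among the assembly chaperones Psmg4 changed by -0.94 ± 0.10, Psmd10 by -0.80 ± 0.08 and Psmg1 by -0.51 ± 0.09, whereas Psmg2 at 0.12 and Psmg3 at -0.10 did not pass (edgeR adjusted p = 0.248 and 0.411), although Psmg3 passed without NF replicate 1 (edgeR adjusted p = 0.0478).

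**Figure D4:**
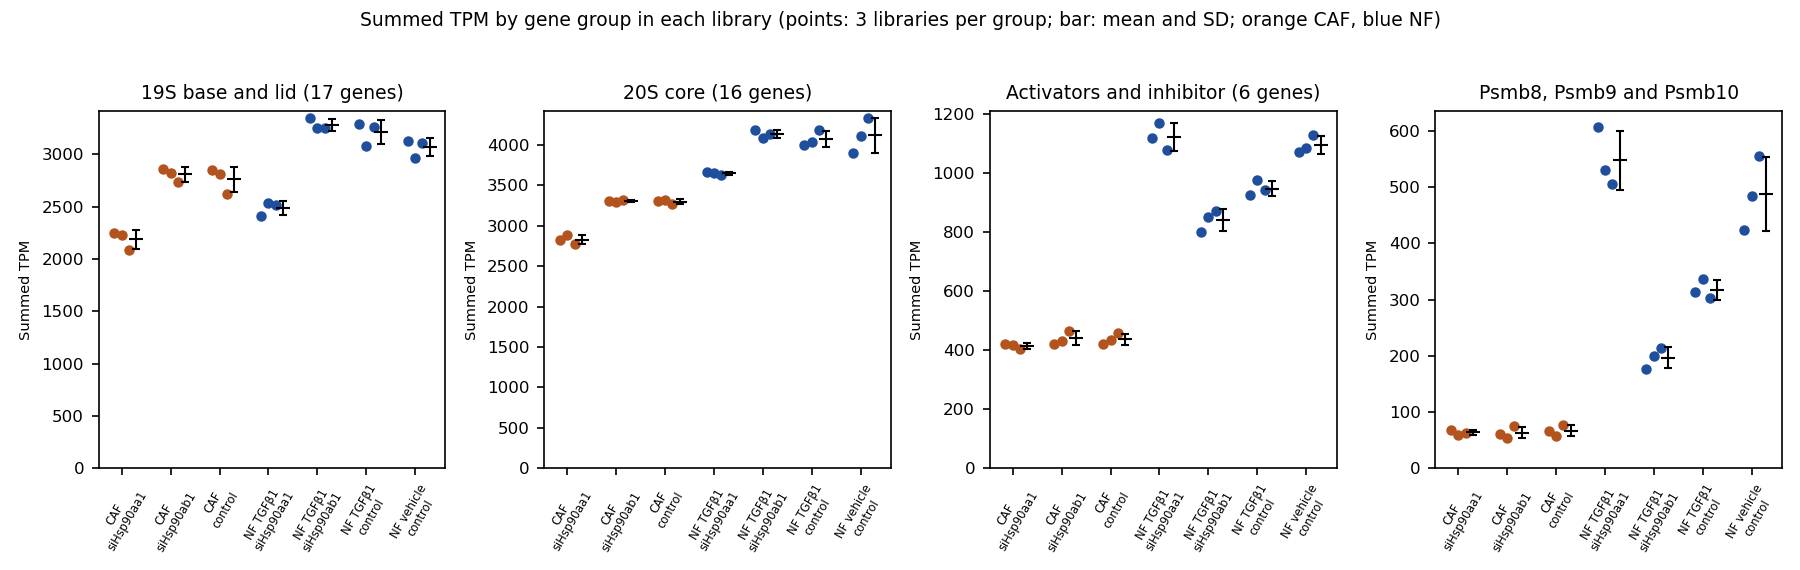
Summed TPM per library of cap genes (17), core genes (16), activators and inhibitor (6) and the immunoproteasome genes Psmb8, Psmb9 and Psmb10 in the 7 groups, with points for libraries and bars for the mean and SD of 3. The immunoproteasome sum is 67.1 ± 9.92 TPM in CAF and 488 ± 65.8 TPM in NF, both with control siRNA and vehicle.

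The widest differences between the lines were in PA28. Psme1, at chr14:55578123-55581529 on the plus strand, had 47.3, 47.2 and 55.7 CPM in CAF, against 255, 203 and 207 CPM in NF. CAF stood at 22.6% of the NF level, with a change of -2.15 ± 0.10 (edgeR adjusted p = 5.63e-12). Psme2, its partner at chr14:55587441-55591113 on the minus strand, had 51.9, 52.1 and 58.2 CPM in CAF, against 148, 177 and 181 CPM in NF. It stood at 32.1% of the NF level, with a change of -1.64 ± 0.09 (edgeR adjusted p = 4.06e-11), and no library of either gene reached the other line's range. The copy Psme2b changed by -1.41 ± 0.22, and its reads may be split with Psme2. Exons of Psme1 overlap those of Emc9 on the opposite strand. The nuclear activators changed less, Psme3 by -0.43 ± 0.08 and Psme4 by -0.24 ± 0.08, and the Psme4 call was lost with no filter, with limma and with the compared groups alone (adjusted p up to 0.223). Beside them the immunoproteasome genes were lower in CAF, with Psmb8 at -3.13, Psmb10 at -2.67 and Psmb9 at -2.37. All 10 interferon-stimulated genes were lower, against 30.0% of all genes tested, with a median of -4.17. Irf9 stood at -2.56, and the part of these genes in the difference of Psme1 and Psme2 was not tested.

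Across all 7 groups Psme1 had the widest range of any member. Its mean was 44.5 CPM in CAF with siHsp90ab1, 50.1 in CAF with control siRNA and 50.4 in CAF with siHsp90aa1, then 108 in NF with siHsp90ab1, 148 in NF with TGFβ1 and control siRNA, 202 in NF with siHsp90aa1 and 222 in NF with vehicle. The 3 CAF groups overlapped each other, as did the 2 highest NF groups, and the other neighbours in this order did not overlap.

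The promoters of Psme1 and Psme2 are shown because these genes differed most between the lines and both rose with siHsp90aa1 in NF. They come from RefSeq (GRCm38.p6) with the same window, chr14:55578244-55578518 (plus strand) for Psme1 and chr14:55591077-55591351 (minus strand) for Psme2, written 5′ to 3′. The Psme1 window lies inside the gene as GENCODE places it, from base 55578123, so it precedes the RefSeq start only. RefSeq gives Psme2 a further start, with a window at chr14:55590972-55591271, which is not printed and also holds no match. Capitals mark a match to the interferon-stimulated response element on the opposite strand, searched as GAAA and GAAA with 2 bases between them.
Psme1 promoter: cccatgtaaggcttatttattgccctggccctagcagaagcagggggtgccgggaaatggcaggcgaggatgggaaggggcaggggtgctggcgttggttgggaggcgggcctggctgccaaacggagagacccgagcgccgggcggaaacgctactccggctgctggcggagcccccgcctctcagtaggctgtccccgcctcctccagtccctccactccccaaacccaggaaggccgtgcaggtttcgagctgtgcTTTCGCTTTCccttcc
Psme2 promoter: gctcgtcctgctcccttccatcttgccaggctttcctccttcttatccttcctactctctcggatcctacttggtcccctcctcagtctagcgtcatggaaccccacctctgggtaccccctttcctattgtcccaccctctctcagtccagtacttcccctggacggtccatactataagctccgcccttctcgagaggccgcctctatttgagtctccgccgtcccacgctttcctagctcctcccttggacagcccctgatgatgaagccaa
This element was in 5 of the 38 proteasome promoters (13.2%), those of Psmb3, Psmd4, Psmd9, Psme1 and Psmg4, and in 3.99% of all genes. In Psme1 the match spans bases 10 to 19 after the start, and the Psme2 window holds no match to these letters.

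For the other lists, the background of CAF against NF was 61.6% of all genes tested, 31.6% higher and 30.0% lower. Among them, 1 was higher and 5 lower of the 16 further subunits and associated proteins, with the shuttle gene Ubqln4 at -1.02 and its relative Ubqln2 at 0.53. Of the 11 NRF1 pathway genes 2 were higher and 1 lower, with Sel1l, an adaptor of protein retrotranslocation, at 1.42. Of the 6 ubiquitin and E1 genes 0 were higher and 3 lower, of the 10 heat shock factor targets 2 were higher and 3 lower, and of the 6 NRF2 targets 2 were higher and 1 lower.

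Few proteasome genes passed with TGFβ1 in NF. TGFβ1 against vehicle, with control siRNA, called 2 of 44 members (4.55%), 1 higher and 1 lower, against a background of 29.0% of all genes, 14.6% higher and 14.4% lower. The median was -0.022, against -0.028 over all genes. For 43 of the 44 the 95% interval lay within 1.5-fold of no change, a share not taken over all genes. This comparison and CAF against NF share the NF vehicle libraries. Psme1 was the exception, with 159, 152 and 133 CPM with TGFβ1, against 255, 203 and 207 with vehicle, and it fell by 0.58 ± 0.10 (edgeR adjusted p = 0.000221). Its vehicle replicate 1 stood above the other vehicle libraries, and all 3 lay above the TGFβ1 libraries. That library also had the highest mitochondrial share of the 21, 4.30%, and without it 6 members passed, Psme1 among them. Over all genes 4291 passed without that library, and 4410 with it. Psme4, the PA200 activator, had 205, 219 and 251 CPM with TGFβ1, against 183, 182 and 202 with vehicle. The groups did not overlap and the change was 0.25 ± 0.08 (edgeR adjusted p = 0.0217). This call was lost without NF TGFβ1 replicate 3 and without NF vehicle replicate 1 or 2, and in a fit of the compared groups alone. With the replicate number as a block, 6 members passed in place of 2, and 5542 of the 15230 genes passed in place of 4410. Psme2 stood at -0.21 (edgeR adjusted p = 0.0959) and passed without NF vehicle replicate 1 (edgeR adjusted p = 0.0187), while Psmb8, Psmb10 and Psmb9 fell by 0.49, 0.79 and 1.14, and of the 10 interferon-stimulated genes 0 rose and 3 fell. Of the 11 NRF1 pathway genes 4 rose and 2 fell, among them Nfe2l1 itself at 0.47 (edgeR adjusted p = 0.0012) and Nfe2l2, the gene of the related factor NRF2, at -0.61. Of the 16 further subunits and associated proteins 1 rose and 1 fell, and 0 of 6 ubiquitin and E1 genes changed. Of 10 heat shock factor targets 1 rose and 3 fell, and of 6 NRF2 targets 0 rose and 1 fell.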

How the data were processed

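Per the submitters' processing notes, reads were processed with STAR and Salmon on GRCm38, with no versions or settings stated. The authors deposited expected counts per gene, which are not normalised and of which 10.9% were not whole, and TPM values scaled by transcript length. Counts were rounded (a step of at most 0.5) and fitted in edgeR 4.0.16 under R 4.3.3. Genes were filtered by group with filterByExpr, at minimum counts of 10 per library and 15 in total. The 21 libraries, scaled by TMM, entered 1 quasi-likelihood model with a coefficient for each group, with Benjamini-Hochberg adjustment over 15230 genes in each of 10 comparisons, with a threshold of 0.05. Scripts were tested on simulated data. TPM was used for levels between genes and for sums over genes, CPM within a gene. TPM has no TMM scaling, so summed TPM set between groups may hold differences in library composition. The mean TMM factor ran from 0.925 in CAF with siHsp90aa1 to 1.06 in NF with vehicle. The standard error is the size of the log2 fold change over the square root of F. Coordinates come from GENCODE vM21, which held 98.8% of the genes. The counts of replicates differed far beyond sampling noise (chi-square over its degrees of freedom 16.3 to 143), so precision rests on replicate spread more than on depth.

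The named members are, per comparison, up to 5 called genes each way with the smallest p, the catalytic subunits, Psmd4, Psmd14, Psme1 to Psme4, Psmg1 to Psmg4, the highest and lowest genes of each role by TPM, untested genes and single exceptions, with up to 3 genes from each other list. Genes that make up counts of 5 or fewer outside this rule were named after their values were seen. The members and lists were chosen with earlier results of these data known. The labels give the replicate number as a batch: same-numbered libraries deviated together (r over 0.1 in 55 of 63 pairs, mean 0.348 over 8947 genes). The mean for other numbers was -0.167. Deviations were taken from each group's mean, so that negative value largely follows from the positive one and is no separate evidence.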

Additional observations from a re-analysis of the deposited data

Results flagged for a closer look

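The effect of siHsp90aa1 on Psme2 differed between the lines in the test of the difference itself, though not in every alternative. With 1 library left out, 0 to 1 members passed this test. The change in CAF minus the change in NF with TGFβ1 was -0.47 ± 0.13 on the log2 scale (95% interval -0.74 to -0.20, edgeR adjusted p = 0.0368), and the lines also differ in TGFβ1.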

How the results depend on the processing

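Alternatives were other size factors, no filter, DESeq2 1.42.0, limma 3.58.1 on log2(TPM + 1), a fit of the compared groups alone, the replicate block and leaving out each library. No called value changed sign. Values near 0 did: Psmb7 in CAF against NF, at -0.08, reached 0.028 in 1 alternative, and the median of the members reached 0.023 with limma for TGFβ1 against vehicle (-0.022), -0.010 with no filter for siHsp90ab1 in CAF (0.012) and -0.016 without control replicate 3 for siHsp90ab1 in NF (0.0046). For TGFβ1 against vehicle the count of members was 2 and became 6 with the replicate block, 5 with DESeq2 and 1 with the compared groups alone, and 1 to 6 with 1 library left out (1 without NF TGFβ1 replicate 3, 6 without NF vehicle replicate 1 and 5 without NF vehicle replicate 2 or 3). Over all genes the calls were 4410 and became 5542 with the replicate block, 4794 with DESeq2 and 3166 with the compared groups alone. The replicate block moved no other count of members by over 1.5 times, though it added single calls given beside their genes. For the siHsp90aa1 effect in CAF minus NF the count of members was 1 and became 2 with DESeq2, limma and the compared groups alone, and 0 to 1 with 1 library left out (0 in 8 of 12). Over all genes the calls were 832, and 1329, 802 and 776 with DESeq2, limma and the compared groups alone. Leaving out 1 library gave 12 to 19 members for siHsp90aa1 in NF (12 without NF TGFβ1 control replicate 1), 11 to 16 for siHsp90aa1 in CAF, 0 to 1 for siHsp90ab1 in NF, 32 to 35 for CAF against NF, 18 to 20 for siHsp90aa1 against siHsp90ab1 in NF and 11 to 16 in CAF (11 without CAF siHsp90ab1 replicate 1 or 2). The calls over all genes moved too. For siHsp90aa1 in NF they went from 4309 to 2961 without NF TGFβ1 control replicate 1. For siHsp90aa1 in CAF they went from 3867 to 2524 without siHsp90aa1 replicate 3, which gave 11 members. They rose to 4426 without CAF control replicate 3, which gave 16. Of the members called, 28 of 35 in CAF against NF, 12 of 19 for siHsp90aa1 in NF and 11 of 14 in CAF passed in every alternative. Where a setting changed a count, the cause was not tested beyond the fewer libraries of some fits.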
